A study of Mus musculus with 6 samples.

Results

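The cytosolic ribosomal protein genes were taken by name from the gene tables of mouse intestine: every row whose symbol was Rpl or Rps followed by a number (with an optional letter a, x, l or y), and Rplp0, Rplp1, Rplp2 and Rpsa. This gave 84 of 54532 rows, 32 of the small and 52 of the large ribosomal subunit, with 1 row per symbol. Of the 84 rows, 81 were annotated as protein-coding and 3 (Rps4l, Rpl6l and Rpl32l) as pseudogenes. RNA had been measured in intestine of newborn C57BL/6 mice, an inbred strain, after 5 days with NECA or after 5 days with its solvent DMSO, with 3 libraries in each group. NECA is an adenosine analogue that activates several adenosine receptor subtypes, and DMSO served as the vehicle control. All 6 libraries came from the same strain, age and tissue, and no disease model, allele or second agent is named for them. The series title places them in work on necrotizing enterocolitis, a bowel disease of newborns, and on suppressive myeloid cells. Bowel segment, dose and route of NECA are not in the labels, which also leave unsaid whether each library was a different mouse. Spread between libraries, the base of every p-value here, may thus be technical in part.

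Each ribosome is built from ribosomal RNA and one copy of most ribosomal proteins per subunit, so cells make these proteins in matched amounts, and their mRNAs are among the most abundant of growing cells. Vertebrate ribosomal protein mRNAs begin with a stretch of pyrimidines, the terminal oligopyrimidine (TOP) tract, through which mTOR signalling sets how strongly they are translated, a step that mRNA counts do not read. The renewing crypt epithelium of the intestine is rich in ribosomes. Most ribosomal protein genes also have many processed pseudogenes in mammalian genomes, near-identical copies that can receive reads from the parent gene.

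Runs of pyrimidines near the annotated start were more common in the reference sequence of these genes than in that of all genes. RefSeq's promoter table (GRCm38.p6) had 73 entries for 61 of the coding members. In the 100 bases from 50 before to 50 after the annotated start, an unbroken run of at least 8 pyrimidines (C or T, coding strand) was present in 79.5% of the members' entries, against 35.7% of all 32851 entries. The run could lie anywhere in those bases, so the search did not place it at the start itself. The shorter string CTTTCC, also searched on the coding strand and itself made of C and T so that it overlaps the first search, was present in 31.5% of the members' entries against 4.69% of all entries. Windows of 30 bases are shown for 4 genes described below: Rps2 at chr17:24720083-24720112 (plus strand), Rpl37 at chr15:5116631-5116660 (plus strand) and Rpl41 at chr10:128549119-128549148 (minus strand), whose fitted levels were higher with NECA, and Rpl31 at chr1:39367824-39367853 (plus strand), whose fitted level was lower. Each is read 5′ to 3′ on the coding strand, with the longest pyrimidine run of the searched window in capitals:
Rps2: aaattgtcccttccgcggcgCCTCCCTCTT
Rpl37: ggcgggggtgCTTTCTCTTCCggtctcttt
Rpl41: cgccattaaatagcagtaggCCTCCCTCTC
Rpl31: ctcgccacaCCTCTTCCTCCTCgcctcccc
The runs were 10, 11, 10 and 13 bases long. For Rpl37 and Rpl31 the first base of the GENCODE gene model, at chr15:5116645 and chr1:39367842, fell inside the printed run. For Rps2 and Rpl41 it did not: the Rps2 model begins at chr17:24718116 and the Rpl41 model, on the minus strand, at chr10:128549305, both outside the printed windows. A run was thus shown both for genes that were higher and for the one that was lower, and start sites were not measured in these libraries.

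The NECA libraries held 15917018, 18065078 and 17895486 counts and the DMSO libraries 17922697, 15531996 and 16302265, with 21564 to 21946 genes detected. Markers of intestinal epithelium were abundant in every library: the 16 markers, all of them tested, summed to 13901 to 20237 CPM (counts scaled to library size with TMM factors) in NECA libraries and to 18611 to 19658 CPM in DMSO libraries. NECA replicate 2 stood apart from the other 5 libraries. Its TMM factor was 1.112, against 0.964 to 1.001 elsewhere, and its 9 jejunal and proximal markers summed to 1707 CPM, against 25675 and 23871 CPM in NECA replicates 1 and 3 and 22866 to 26275 CPM in the DMSO libraries. Its 29 proliferation genes summed to 3783 CPM, against 1727 and 1779 CPM in the other NECA libraries and 1565 to 2048 CPM in DMSO libraries. Its 10 stem and crypt markers summed to 778 CPM, against 1133 and 1024 CPM in the other NECA libraries and 1135 to 1265 CPM in DMSO libraries. Olfm4 had 267 CPM there, against 509 to 653 CPM elsewhere. The median log2 CPM of these markers was instead highest there, at 5.43 against 5.04 to 5.27. Its 10 ileal markers summed to 4177 CPM, against 2654 and 3908 CPM in the other NECA libraries and 1480 to 3861 CPM in DMSO libraries. All but Ctsl and Dpp4 were highest there. Fabp6 had 1913 CPM, against 0 to 150 CPM elsewhere, and Guca2a 970 CPM, against 11.9 to 211 CPM. Ctsl had 123 CPM, against 996 to 2851 CPM. Fold changes are therefore followed by the value without NECA replicate 2 where that moves them by over 1.5 times or turns their sign. The other 5 libraries also differed in such markers, which leaving out NECA replicate 2 does not remove. Fabp6 had 150 CPM in NECA replicate 3 and 135 CPM in DMSO replicate 3. It had 0 to 0.201 CPM in NECA replicate 1 and DMSO replicates 1 and 2. The colonic marker Car1 had 137 counts in DMSO replicate 1 and 0 to 2 counts elsewhere. Of the ileal markers 9 of 10, and of the jejunal and proximal markers 3 of 9, had a log2 fold change above 0 without NECA replicate 2. Markers of several other cell types had lower fitted levels with NECA. Of those tested, 0 of 9 B and plasma cell, 0 of 9 T and innate lymphoid cell, 0 of 11 monocyte and macrophage and 0 of 8 smooth muscle markers had a log2 fold change above 0, with medians of −2.93, −0.60, −0.47 and −0.51, and 0 of them passed the adjusted threshold of edgeR. Further lists were mixed, with 2 of 4 neutrophil, 2 of 5 erythroid, 2 of 8 stroma and 2 of 8 endothelium markers above 0. So were 1 of 8 enteric neuron and glia and 1 of 3 pancreas markers. Without NECA replicate 2, 5 of 5 erythroid and 4 of 8 endothelium markers were above 0. B and plasma cell markers summed to 10.5 to 21.98 CPM in NECA libraries and 23.2 to 88.7 CPM in DMSO libraries, T and innate lymphoid markers to 13.4 to 69.5 CPM with NECA and 61.6 to 110 CPM with DMSO, and monocyte and macrophage markers to 345 to 716 CPM with NECA and 631 to 807 CPM with DMSO. Their part in the results below was not tested. Mitochondrial transcripts took 1.31% to 3.63% of counts in NECA libraries and 3.61% to 8.39% in DMSO libraries.

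Ribosomal protein transcripts took a larger share of counts in NECA replicate 2 than in any other library, and a similar share in the other 5. The 84 rows held 2.86%, 4.41% and 3.27% of all counts in NECA replicates 1 to 3, against 3.13%, 3.07% and 3.004% in DMSO replicates 1 to 3. The groups overlapped, since NECA replicate 1 was the lowest of the 6 libraries. The mean was 3.51% ± 0.801 with NECA and 3.07% ± 0.0630 with DMSO (SD, n = 3 each), a difference of 0.444 percentage points that became −0.003 percentage points without NECA replicate 2. With mitochondrial genes left out of the total, the shares were 2.97%, 4.47% and 3.37% with NECA, against 3.28%, 3.35% and 3.12% with DMSO, so the difference in mitochondrial counts did not remove the peak in NECA replicate 2. The part that the tissue make-up of NECA replicate 2 has in its share was not tested, and in bulk tissue more cells of a ribosome-rich type cannot be told apart from more of these mRNAs per cell.

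**Figure D1:**
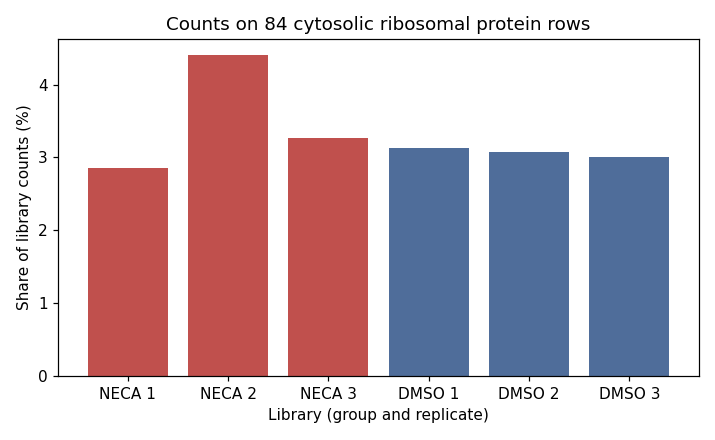
Share of all counts (%) on the 84 cytosolic ribosomal protein rows in each of the 3 NECA and 3 DMSO libraries, 1 bar per library. NECA replicate 2 reached 4.41%, while the other 5 libraries lay between 2.86% and 3.27%.

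The balance between the subunits was nearly the same in every library. Small-subunit counts divided by large-subunit counts gave 0.716, 0.731 and 0.721 with NECA and 0.729, 0.732 and 0.719 with DMSO. The mean ratio was 0.723 ± 0.00758 with NECA and 0.727 ± 0.00647 with DMSO (SD, n = 3 each). NECA replicate 2, with the largest ribosomal protein share, therefore had a ratio within the range of the other libraries.

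Levels differed widely between the genes. Of the 84 rows, 68 averaged at least 100 CPM and 7 averaged less than 10 CPM. On the deposited FPKM scale, which divides by gene length, the stalk genes Rplp1 and Rplp0 led. Rplp1, at chr9:61913284-61914542, encodes an acidic protein of the large-subunit stalk, the arm that recruits translation factors, and it averaged 1888 ± 267 FPKM with NECA and 1840 ± 146 FPKM with DMSO (SD, n = 3 each). Rplp0, at chr5:115559467-115563727, encodes the base of that stalk and averaged 760 ± 70.2 FPKM with NECA and 785 ± 18.7 FPKM with DMSO. Rps15, a protein of the small-subunit head, followed with 741 ± 66.1 FPKM with NECA and 735 ± 66.1 FPKM with DMSO. The lowest tested rows were Rpl36al with a mean of 0.42 FPKM over the 6 libraries, Rps10 with 0.74, Rpl24 with 2.09, Rpl21 with 12.8 and Rpl13a with 15.2.

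The order of these levels depends on the length used. The divisor behind the deposited FPKM equalled the summed length of all annotated exons of the gene, within 1%, for 78 of the 82 rows with an FPKM value. That length was a median of 2.02 times and up to 12.1 times the length of the principal transcript, so FPKM understated genes whose models carry long extra exons. Per kilobase of the principal transcript, Rplp1 still led with 1879 CPM, followed by Rps14 with 1334, Rpl13 with 1048 and Rps2 with 1002 CPM. Rps14, whose exon length was 4.01 times its transcript, averaged 571 FPKM and was not among the 5 highest on that scale.

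No ribosomal protein gene differed between NECA and DMSO after adjustment over all genes. Of the 84 rows, 80 passed the filter on low counts and were tested. With edgeR's quasi-likelihood test, 0 of the 80 had a Benjamini-Hochberg adjusted p of at most 0.05, as did 0.0% of the 15847 genes tested, and the smallest adjusted p of a member was 0.738. DESeq2 also called 0 of the 80, against 0.0694% of all genes. At an unadjusted p of 0.05, edgeR had 7 of 80 members (5 higher and 2 lower with NECA) and 5.48% of all genes, of which 2.45% were higher and 3.03% lower. Without NECA replicate 2, 4 of 80 members were at that p, near the 5.49% of all genes. With all libraries, the 5 higher members exceeded the share of all genes, a difference that was not tested. Rpl36al, 1 of those 5, passed the filter on low counts only through its NECA libraries.

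Fitted levels of most members were slightly higher with NECA, and most of that height came with NECA replicate 2. The log2 fold change was above 0 in 64 of 80 members, against 49.0% of all genes, with a median of 0.11, against −0.01 over all genes. After NECA replicate 2 was left out, it was above 0 in 47 of 80 members, against 47.4% of all genes, and the median was 0.02, against −0.02 over all genes. Both subunits gave like values: 26 of 32 small-subunit rows and 38 of 48 large-subunit rows were above 0, with a median of 0.10 for the small and 0.12 for the large subunit. All 3 NECA libraries lay above all 3 DMSO libraries for 7 members (Rps6, Rps28, Rps29, Rpl8, Rpl36, Rpl36al and Rpl37), where 6.49% of all genes did so. All 3 lay below for 3 members, Rpl17 and Rpl21 among them, where 7.16% of all genes did so.

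Seen library by library, the upward shift was largest in NECA replicate 2 and smaller in NECA replicate 3, and NECA replicate 1 lay below the other libraries. Against the median of the other 5 libraries, NECA replicate 2 was above in 72 of 80 members, with a median fold of 1.24. It was the highest library in 58 members, whereas it was the highest in 30.1% of all genes. NECA replicate 1 was below the median of the others in 71 members, with a median fold of 0.912, and was the lowest library in 32, whereas it was the lowest in 13.7% of all genes. NECA replicate 3 was above in 62, with a median fold of 1.07. The DMSO libraries had median folds of 0.986, 1.004 and 0.955, and DMSO replicate 2 was the highest library in 12 members and the lowest in 21, against 26.5% and 25.1% of all genes. The 2 extreme libraries over the members as a whole were thus both NECA libraries.

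**Figure D2:**
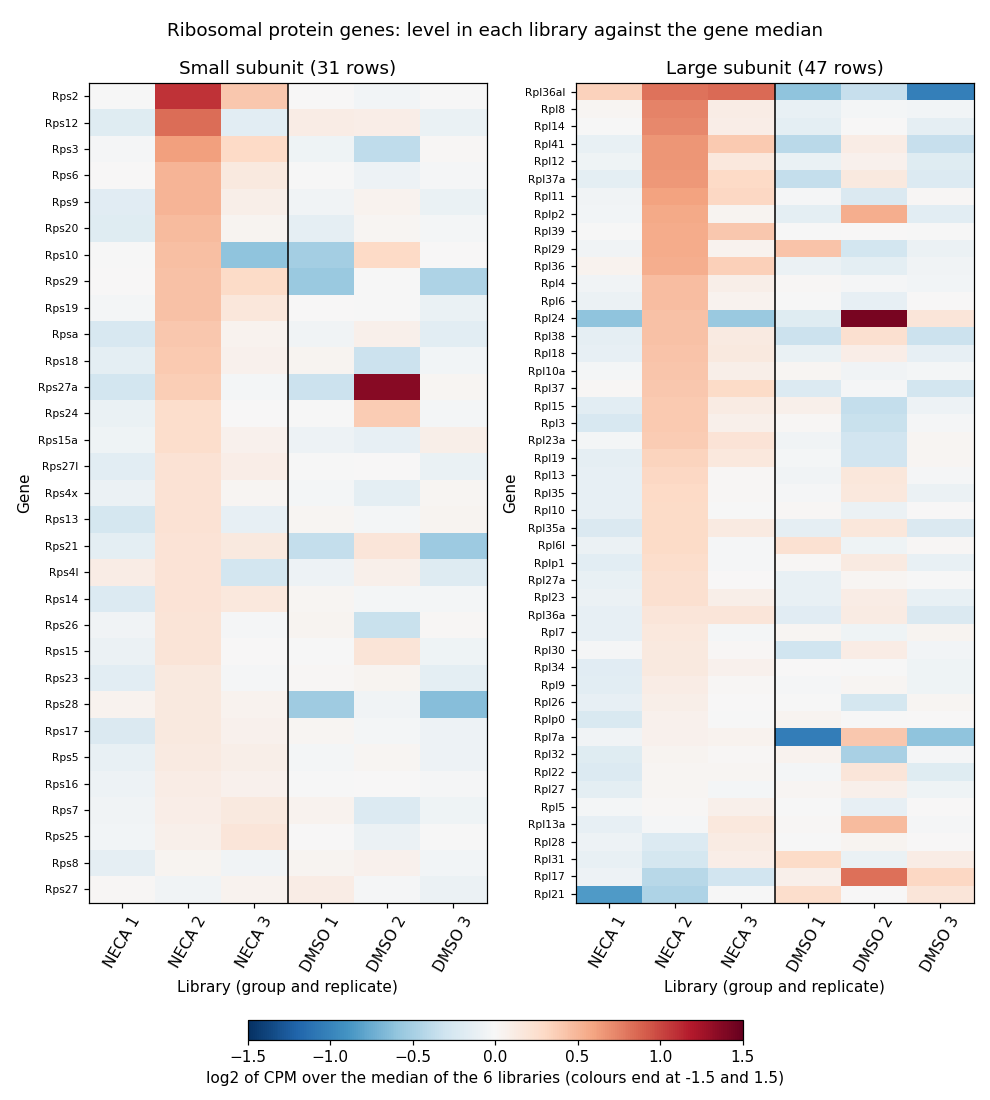
Log2 ratio of the CPM in each library to the median of the 6 libraries, for 31 small-subunit and 47 large-subunit rows, with the 3 NECA libraries left of the line and the 3 DMSO libraries right of it. Rows are sorted by NECA replicate 2, where 58 of the 78 rows drawn are highest. Rps27a and Rpl24 stand out in red in DMSO replicate 2.

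Members did not follow NECA replicate 2 in step. Its fold over the median of the other libraries exceeded 1.5 in 14 members and was below 1 in 8. Rps2, at chr17:24718116-24721929, a small-subunit protein near the entry of the mRNA channel, was 2.13 times the median of the others there. It had 882, 1877 and 1175 CPM with NECA and 892, 866 and 883 CPM with DMSO. The DMSO libraries agreed closely, NECA replicate 1 lay among them, and the other 2 NECA libraries lay above. The log2 fold change of Rps2 was 0.57 (SE 0.30, edgeR adjusted p = 0.738), and 0.23 without NECA replicate 2.

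Rps12, a small-subunit protein named here after its values were seen, was 1.91 times the median of the others in NECA replicate 2. It had 287, 581 and 293 CPM with NECA and 353, 350 and 304 CPM with DMSO. Its 2 other NECA libraries lay below every DMSO library, so the log2 fold change was 0.21 (SE 0.30) with all libraries and −0.21 without NECA replicate 2. Rpl8, a large-subunit protein near the peptidyl transferase centre and also named after its values were seen, had 722, 1191 and 767 CPM with NECA and 655, 696 and 690 CPM with DMSO. All of its NECA libraries lay above all of its DMSO libraries, with a log2 fold change of 0.39 (SE 0.24), and 0.13 without NECA replicate 2.

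Rps6, the small-subunit protein that S6 kinases phosphorylate downstream of mTOR, had 537, 763 and 596 CPM with NECA and 536, 511 and 530 CPM with DMSO. The groups did not overlap, but NECA replicate 1 exceeded the highest DMSO library by less than the spread within either group. Its log2 fold change was 0.27 (SE 0.20, edgeR adjusted p = 0.739), and 0.11 without NECA replicate 2. Rps19, the gene most often mutated in Diamond-Blackfan anaemia in humans, had 383, 527 and 439 CPM with NECA and 392, 389 and 365 CPM with DMSO. Its groups overlapped, with a log2 fold change of 0.24 (SE 0.19), and 0.11 without NECA replicate 2. Rpsa, which is also known as the laminin receptor precursor, had 786, 1233 and 967 CPM with NECA and 893, 980 and 835 CPM with DMSO, and a log2 fold change of 0.14 (SE 0.23), which was −0.04 without NECA replicate 2, so its sign rested on that library.

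Rpl5 and Rpl11, which bind the 5S ribosomal RNA and, when unassembled, the p53 regulator MDM2, had unlike values. Rpl5 had 592, 611 and 637 CPM with NECA and 600, 554 and 609 CPM with DMSO, a log2 fold change of 0.06 (SE 0.17). Rpl11 had 414, 648 and 529 CPM with NECA and 422, 369 and 434 CPM with DMSO, a log2 fold change of 0.38 (SE 0.22), and 0.21 without NECA replicate 2. The groups overlapped for both genes, and the difference between the 2 genes was not tested. The stalk genes lay close to 0, with log2 fold changes of −0.06 (SE 0.20) for Rplp0, 0.02 (SE 0.21) for Rplp1 and 0.10 (SE 0.27) for Rplp2. Leaving out NECA replicate 2 gave −0.12 for Rplp0, −0.10 for Rplp1 and −0.11 for Rplp2.

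The members with the smallest p on the higher side were mostly small proteins. Rps29, at chr12:69157722-69159186, encodes a zinc-binding protein of the small subunit and had 67.3, 90.5 and 81.5 CPM with NECA, against 45.6, 66.6 and 48.4 CPM with DMSO. The lowest NECA library exceeded the highest DMSO library by less than 1 CPM. The log2 fold change was 0.58 (SE 0.19, edgeR adjusted p = 0.738), and 0.48 without NECA replicate 2. Rps28, at chr17:33819027-33824562, a small-subunit protein near the mRNA exit, had 44.2, 47.2 and 44.1 CPM with NECA, against 29.5, 41.2 and 27.4 CPM with DMSO. Its 3 NECA libraries were close together and all above DMSO, with a log2 fold change of 0.47 (SE 0.18, edgeR adjusted p = 0.738) and 0.44 without NECA replicate 2.

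Rpl37, a zinc-binding protein of the large subunit at chr15:5116645-5119140, had 127, 167 and 154 CPM with NECA, against 110, 125 and 105 CPM with DMSO. Rpl36, a large-subunit protein at chr17:56613416-56614243, had 265, 374 and 327 CPM with NECA, against 242, 232 and 247 CPM with DMSO. Neither gene overlapped between groups, and the log2 fold changes were 0.40 (SE 0.16) for Rpl37 and 0.42 (SE 0.18) for Rpl36, both with an edgeR adjusted p of 0.738. Leaving out NECA replicate 2 gave 0.32 for Rpl37 and 0.30 for Rpl36. Rpl41, at chr10:128548114-128549305, encodes a very short basic peptide between the subunits and had 476, 816 and 673 CPM with NECA, against 389, 556 and 404 CPM with DMSO. DMSO replicate 2 lay above NECA replicate 1, and the log2 fold change was 0.54 (SE 0.26), and 0.36 without NECA replicate 2.

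Coding length was compared after these values were seen. The 10 members with a coding sequence under 300 bases (Rpl41, Rpl39, Rps29, Rps28, Rpl38, Rps21, Rps27l, Rps27, Rpl37a and Rpl37, from 75 to 291 bases without the stop codon) all had a log2 fold change above 0. Their median was 0.37. Without NECA replicate 2 it was 0.22 with 10 of 10 above 0, in a fit that reused the other libraries and was no independent repeat. Among the other 68 coding members tested, 52 were above 0 with a median of 0.10, and 37 with a median of 0.01 without that library. Short coding genes outside the family did not share the direction, with 115 of 282 above 0 and a median of −0.08. Within the 10 the sizes differed: Rps27 had 141, 134 and 143 CPM with NECA and 150, 137 and 131 CPM with DMSO, a log2 fold change of 0.00 (SE 0.14), and 0.03 without NECA replicate 2. Over 78 coding members, log2 fold change and log2 coding length had a Pearson r of −0.18 and a Spearman rho of −0.10, a weak relation over genes that share the same libraries.

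**Figure D3:**
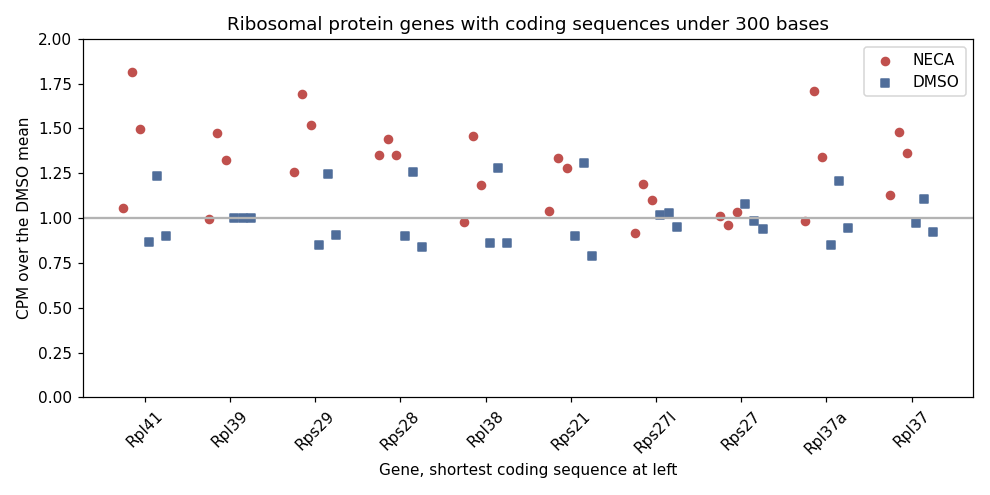
CPM of each library divided by the DMSO mean, for the 10 members with coding sequences under 300 bases, with NECA libraries as circles and DMSO libraries as squares. For Rps28, Rps29 and Rpl37 every circle lies above every square, and for Rps27 the 2 groups coincide.

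Rpl39 showed the tightest controls. This gene for a small protein of the peptide exit tunnel had 149, 221 and 198 CPM with NECA and 150, 150 and 150 CPM with DMSO (mean 189 ± 36.6 with NECA and 150 ± 0.184 with DMSO, SD, n = 3 each). Its log2 fold change was 0.34 (SE 0.18, edgeR adjusted p = 0.738), and 0.22 without NECA replicate 2, and NECA replicate 1 lay at the DMSO level.

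On the lower side, Rpl17, at chr18:74998558-75003381, encodes a protein that lines the peptide exit tunnel and had 119, 94.1 and 103 CPM with NECA, against 133, 223 and 156 CPM with DMSO. The log2 fold change was −0.69 (SE 0.22, edgeR adjusted p = 0.738), and −0.61 without NECA replicate 2. Rpl21, a large-subunit protein at chr5:146832890-146837032, had 26.0, 34.1 and 46.7 CPM with NECA, against 56.5, 47.3 and 53.5 CPM with DMSO, a log2 fold change of −0.56 (SE 0.22, edgeR adjusted p = 0.738), and −0.53 without that library. The groups of neither gene overlapped, although for Rpl21 the highest NECA and the lowest DMSO library were less than 1 CPM apart. Rpl31, a protein beside the exit of the tunnel at chr1:39367842-39371911, had 294, 265 and 339 CPM with NECA and 387, 297 and 342 CPM with DMSO, groups that overlapped, with a log2 fold change of −0.19 (SE 0.19), and −0.11 without that library.

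For Rps27a and Rpl24 the value rested on DMSO replicate 2. Rps27a, at chr11:29545846-29548109, is made as a fusion to ubiquitin, which is cut off, and it had 133, 208 and 159 CPM with NECA and 129, 414 and 164 CPM with DMSO. Its log2 fold change was −0.50 (SE 0.43), and 0.19 without DMSO replicate 2, so the sign was set by that library. It was −0.68 without NECA replicate 2. Rpl24, a large-subunit protein that forms a bridge to the small subunit, had 1.16, 2.39 and 1.21 CPM with NECA and 1.56, 4.75 and 2.0006 CPM with DMSO, a log2 fold change of −0.78 (SE 0.51). Leaving out NECA replicate 2 gave −1.21, and leaving out DMSO replicate 2 gave −0.15. DMSO replicate 2 also held 8.39% mitochondrial counts and the most smooth muscle marker signal, with 8 markers summing to 7354 CPM, against 3177 to 3564 CPM in NECA libraries and 3911 and 3018 CPM in the other DMSO libraries. The part of tissue make-up in these 2 values was not tested.

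Several further members, named after their values were seen, followed NECA replicate 2 or differed among the DMSO libraries. Rps3, a small-subunit protein at the mRNA entry that also takes part in DNA repair, had 772, 1193 and 963 CPM with NECA and 747, 601 and 790 CPM with DMSO. Its log2 fold change was 0.45 (SE 0.24), and 0.29 without NECA replicate 2. Rpl12, which lies at the base of the stalk, had 365, 603 and 429 CPM with NECA and 357, 401 and 336 CPM with DMSO, and the large-subunit gene Rpl14 had 347, 576 and 373 CPM with NECA and 315, 350 and 318 CPM with DMSO. Both were highest in NECA replicate 2, with their other NECA libraries among or just above DMSO. Rpl7a, a large-subunit protein of whose summed counts 45.7% were on pseudogene copies, had 138, 149.7 and 149 CPM with NECA and 70.03, 190 and 94.1 CPM with DMSO. Its NECA libraries were close together and lay within the wide DMSO range, with a log2 fold change of 0.30 (SE 0.34).

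A further 36 tested members were left after others had been taken out, partly for their small p or after their values were seen. Their log2 fold changes ran from −0.07 for Rps24 to 0.29 for Rpl23a, with 30 above 0, and from −0.20 for Rps13 to 0.19 for Rpl23a without NECA replicate 2, with 21 above 0. Their mean levels ran from 26.5 CPM for Rpl6l to 1079 CPM for Rpl4. In none of the 36 were the 2 groups apart, because every member with groups apart had been taken out.

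**Figure D4:**
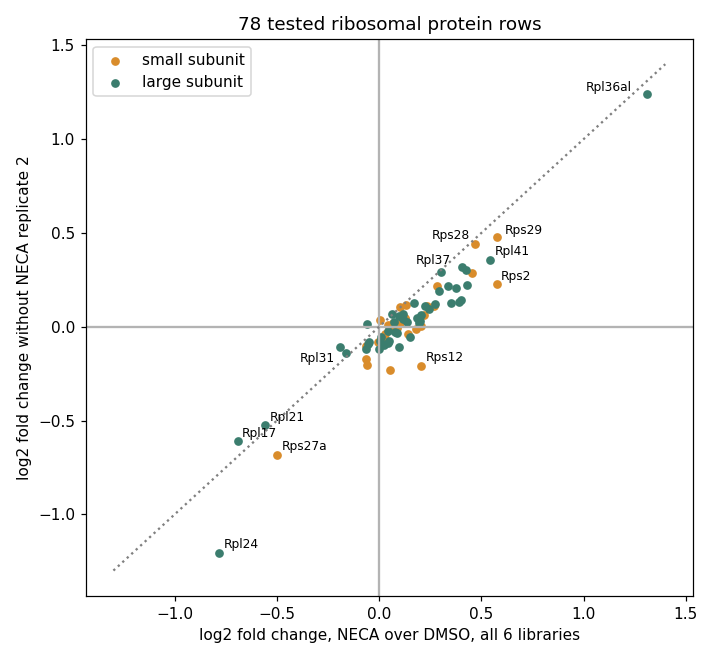
Log2 fold change of NECA over DMSO for 78 tested rows, with all 6 libraries on the horizontal axis and without NECA replicate 2 on the vertical axis; the dotted line marks equal values. Most points lie above 0 on the horizontal axis (64 of 78) and around 0 on the vertical axis (47 of 78 above). Rps2 and Rps12 lie well below the line.

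Near-identical copies hold part of the counts of some members. Coding sequences of members were matched to annotated pseudogenes of GENCODE M21 at 90% identity or more over at least 50% of their length. This gave 1013 pseudogene rows for 77 members, of which 480 had counts. Together these copies held 0.205% to 0.305% of all counts per NECA library and 0.212% to 0.233% per DMSO library. The copies' share of gene plus copies had a median of 2.85% over members and was under 10% for 64 of them. It exceeded 50% for 5: Rps10 (98.4%), Rpl21 (75.1%), Rpl36al (74.7%), Rpl17 (68.9%) and Rpl24 (66.4%). Of these 5, 4 were among the 5 tested rows with the lowest FPKM, and reads of gene and copy cannot be told apart from the counts alone. With copies summed, Rpl24 still had only 4.78 to 11.7 CPM and Rpl36al 2.07 to 2.79 CPM, while Rps10 and Rpl21 reached the higher levels given below. Rpl13a, also among the lowest, had 1.91% of its summed counts on copies.

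Summing gene and copies moved the values of these genes by unlike amounts. Rps10, a small-subunit protein, had 1.74, 2.39 and 1.15 CPM with NECA and 1.23, 2.14 and 1.75 CPM with DMSO on its own row. With copies it had 99.97, 131 and 123 CPM with NECA, against 85.4, 96.02 and 89.96 CPM with DMSO. Most of these counts were on Rps10-ps2 (chr16:20822145-20822640), a processed pseudogene 99.0% identical to the coding sequence, with 1316, 2248 and 1850 counts in NECA libraries and 1251, 1157 and 1202 in DMSO libraries. The summed groups did not overlap, with a log2 fold change of 0.39 (SE 0.15, edgeR adjusted p = 0.738), whereas the gene's own row gave 0.06 (SE 0.39), and −0.23 without NECA replicate 2.

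For Rpl21 the value with copies added was near 0, with 160, 172 and 179 CPM with NECA against 194, 165 and 186 CPM with DMSO, a log2 fold change of −0.09 (SE 0.15). Rpl17 kept its direction, with 381, 334 and 383 CPM with NECA against 465, 627 and 446 CPM with DMSO, groups that did not overlap, and a log2 fold change of −0.49 (SE 0.20, edgeR adjusted p = 0.738). For Rpl24 the summed value was −0.47 (SE 0.35). Rps28, of whose summed counts 47.9% were on copies, gave 0.35 (SE 0.17) with groups that then overlapped, since NECA replicate 1 had 77.5 CPM and DMSO replicate 2 had 81.0 CPM, and Rps29 gave 0.48 (SE 0.17). The median over tested members with copies summed was 0.10, and 0.01 without NECA replicate 2.

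**Figure D5:**
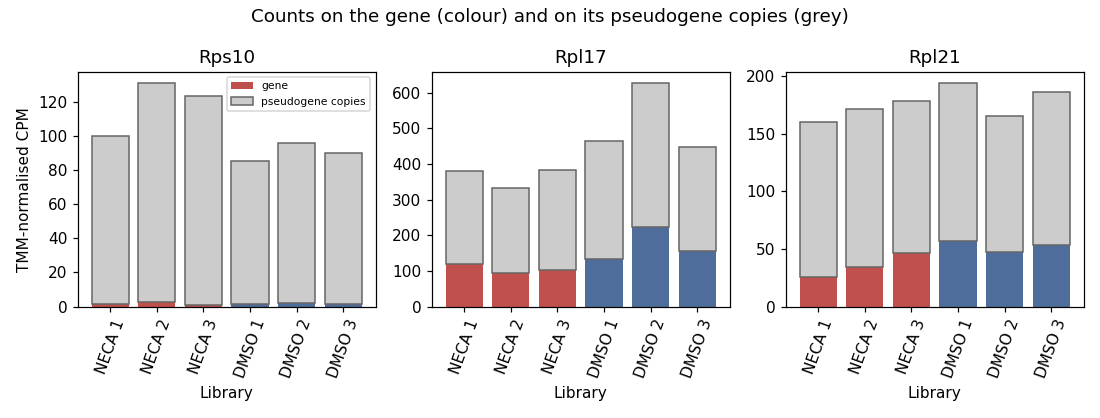
TMM-normalised CPM on the gene (coloured) and on its annotated pseudogene copies (grey, stacked) for Rps10, Rpl17 and Rpl21 in the 3 NECA and 3 DMSO libraries, each panel with its own axis from 0. Copies hold 98.4% of the summed Rps10 counts and 68.9% of those of Rpl17. For Rpl21 the groups do not overlap on the gene's row and overlap when the copies are summed.

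Paralogs with restricted use were nearly silent. Rpl3l, a paralog of Rpl3 known from striated muscle, had 0, 0 and 2 counts with NECA and 0 in each DMSO library. Rpl10l, known from testis, had 0 counts in all 6 libraries, and Rpl39l, also known from testis, had 1, 0 and 0 counts with NECA and 1, 1 and 1 with DMSO. Rpl32l, an annotated pseudogene, had 1, 6 and 2 counts with NECA and 1, 0 and 3 with DMSO. These 4 rows failed the filter on low counts and were not tested. A count of 0 allows up to 3 counts, or 0.166 to 0.193 CPM per library, a limit for counting error only. Their common forms were abundant: Rpl3, close to the peptidyl transferase centre, averaged 790 ± 172 CPM with NECA and 688 ± 89.2 CPM with DMSO, and Rpl10, which joins the large subunit late in its maturation, averaged 610 ± 91.5 CPM with NECA and 574 ± 22.9 CPM with DMSO (SD, n = 3 each).

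The other paralogs were expressed. Rps27l, a p53-inducible relative of Rps27, had 76.8, 99.9 and 92.1 CPM with NECA and 85.3, 86.3 and 79.8 CPM with DMSO, a log2 fold change of 0.10 (SE 0.14) that was 0.01 without NECA replicate 2, and it varied least around the common pattern of the members, with an SD of 0.048 on the log2 scale where the median member had 0.144. Rps4l, annotated as a transcribed processed pseudogene, had 92.2, 98.7 and 70.6 CPM with NECA and 81.0, 90.3 and 74.6 CPM with DMSO, where Rps4x averaged 617 CPM with NECA and 574 CPM with DMSO. Rpl36al had 10, 18 and 16 counts with NECA and 6, 6 and 4 counts with DMSO. Its row gave the largest fitted value of all members, a log2 fold change of 1.31 (SE 0.41, edgeR adjusted p = 0.738), but it passed the filter only through its NECA libraries, and with copies summed the value was −0.09 (SE 0.27). Rpl36a had 118, 145 and 146 CPM with NECA and 114, 139 and 110 CPM with DMSO, a log2 fold change of 0.17 (SE 0.16).

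Most ribosomal protein genes that carry other symbols had values within the range of the members. Of 10 such rows, 8 were tested, 0 passed the adjusted threshold in edgeR and 7 were above 0, with a median log2 fold change of 0.25, and 0.12 without NECA replicate 2. Rps27rt, a retrogene of Rps27, had 53.9, 44.96 and 79.7 CPM with NECA, against 34.7, 23.7 and 38.5 CPM with DMSO, a log2 fold change of 0.88 (SE 0.26, edgeR adjusted p = 0.738), whereas Rps27 itself gave 0.00. Because Rps27rt is annotated as protein-coding, it was not among the copies summed. Reads of Rps27rt and Rps27 cannot be told apart from the counts alone. The value of Rps27rt exceeded that of every member but Rpl36al, whose row had at most 18 counts per library. The same log2 quantity was 0.04 (SE 0.24) for Rps3a1 and −0.12 for it without NECA replicate 2. It was −0.09 (SE 0.18) for Fau, which encodes a ubiquitin-like fusion to a small-subunit protein, and 0.25 (SE 0.22) for Rack1, a signalling scaffold on the small subunit. Leaving out NECA replicate 2 gave −0.05 for Fau and 0.13 for Rack1.

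The rest of the translation machinery was set beside the ribosomal proteins. In edgeR, 0 genes of any of these lists passed the adjusted threshold. Of 46 ribosome biogenesis genes, which build the subunits in the nucleolus, 44 were above 0 with a median log2 fold change of 0.36, and 31 with a median of 0.10 without NECA replicate 2. Bop1, which is needed for large-subunit RNA processing, had 53.0, 93.7 and 55.3 CPM with NECA, against 39.7, 27.97 and 49.6 CPM with DMSO. Ltv1, a small-subunit assembly factor, had 39.4, 47.5 and 37.1 CPM with NECA, against 24.3, 24.0 and 33.6 CPM with DMSO. Both had groups that did not overlap, with log2 fold changes of 0.79 (SE 0.29) for Bop1 and 0.60 (SE 0.19) for Ltv1, and of 0.47 for Bop1 without NECA replicate 2.

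Initiation and other translation factors were above 0 in 27 of 30, with a median of 0.29, and 0.08 without NECA replicate 2; Abce1, which splits ribosomes for reuse, gave 0.49 (SE 0.19; 0.32 without it) and the initiation factor subunit Eif3g 0.42 (SE 0.17; 0.25 without it). Cytosolic aminoacyl-tRNA synthetases were above 0 in 20 of 20, with a median of 0.31, and 0.10 without that library. The 2 with the smallest p were Mars at 0.59 (SE 0.25; 0.29 without NECA replicate 2) and Vars at 0.44 (SE 0.19), the synthetases for methionine and valine. Regulators of ribosomal protein synthesis were above 0 in 19 of 21, with a median of 0.21 and 0.12 without it; the translation repressor Eif4ebp1 gave 0.41 (SE 0.17; 0.24 without it) and the kinase Mtor 0.36 (SE 0.16). Non-ribosomal genes with a TOP tract, mostly elongation factors and binding proteins, were above 0 in 13 of 20, with a median of 0.14 and −0.03 without it. The 2 with the smallest p among them were lower with NECA, the snoRNA host gene Gas5 at −0.35 (SE 0.19) and the helicase gene Eif4a2 at −0.33 (SE 0.22; −0.13 without it). Mitochondrial ribosomal protein genes, which serve the separate ribosome of mitochondria, were above 0 in 40 of 74, with a median of 0.04 and −0.04 without it, and the 2 with the smallest p were Mrps27 at 0.58 (SE 0.18) and Mrpl16 at 0.43 (SE 0.16).

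The summed levels of these lists peaked in the same library. Ribosome biogenesis genes summed to 2221, 3430 and 2265 CPM with NECA, against 1945, 2046 and 2334 CPM with DMSO, highest in NECA replicate 2 like the ribosomal proteins. The 29 proliferation genes were all above 0 with a median of 0.46, and 11 of 29 with a median of −0.09 without NECA replicate 2. Mcm2, a subunit of the replicative helicase, had 149, 150 and 106 CPM with NECA, against 78.4, 102 and 93.7 CPM with DMSO, a log2 fold change of 0.56 (SE 0.19). Bub1b, a mitotic checkpoint kinase, gave 0.60 (SE 0.28), and 0.22 without NECA replicate 2. The ribosomal proteins, the factors that assemble them and the proliferation genes were thus all highest in the library whose jejunal markers were lowest, and the part of bowel position or cell make-up in this was not tested.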

How the data were processed

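Per the labels' protocols, SMARTer complementary DNA of total intestinal RNA was PCR-amplified, then fragmented for paired-end sequencing. Per the submitters' processing notes, HISAT, StringTie and edgeR were used with the mouse build mm10 or GRCm38; the sources used here give no version, strand setting or handling of reads that match several places. For each library the authors deposited a raw count and an FPKM value per gene, per the file headers, and the tests used the counts.

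Genes were filtered with filterByExpr (minimum count 10, minimum total 15), which left 15847 genes, scaled with TMM factors and tested with the quasi-likelihood test of edgeR 4.0.16 in R 4.3.3, NECA against DMSO, with no covariates. P-values were two-sided and adjusted by the Benjamini-Hochberg method over all genes, with a threshold of 0.05. The common biological coefficient of variation was 0.276. Each SE is the fold change divided by the square root of its F statistic. Levels are TMM-normalised CPM. Reads amplified by PCR without molecular identifiers are not independent molecules. DESeq2 1.42.0 and limma 3.58.1 (voom with quality weights, and log2 of the deposited FPKM plus 1) were alternatives, with other scalings, filters, a replicate block and each library left out in turn. Summing pseudogene copies (blastn 2.17.0) and grouping by coding length were added after seeing the data.

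Named genes were the 6 members with the smallest p in each direction, the 5 highest and 5 lowest in mean FPKM, the 4 that varied most around the library median of the members, a set of paralogs and well-known members, and the 2 genes with the smallest p of each other list. A few genes meeting it are not reported here. The members, lists and rule were chosen with earlier results of these data known. Coordinates are from GENCODE M21 (GRCm38), in which all 84 members were found.

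On counts simulated for NECA against DMSO over 15847 genes, 200 of them changed, the test recovered 26.7% of 2-fold and 99.1% of 4-fold changes, with 6 false calls. Every simulated gene had the common biological coefficient of variation of 0.276, and no simulated library stood apart.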

Additional observations from a re-analysis of the deposited data

How the results depend on the processing

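The count of ribosomal protein genes past the adjusted threshold was 0 under all 17 alternatives run. Their median log2 fold change was above 0 under each, from 0.014 with copies summed without NECA replicate 2 to 0.19 without NECA replicate 1. The share of counts differed by −0.003 to 0.770 percentage points when each library was left out in turn. Signs of single genes turned as follows; none of these genes was called. With copies summed without NECA replicate 2, the value was −0.034 for Rpl10, −0.10 for Rpl36al, −0.099 for Rplp1, −0.11 for Rplp2, −0.21 for Rps12, −0.0051 for Rps4l, −0.00076 for Rps4x and −0.035 for Rpsa, and with copies summed it was −0.091 for Rpl36al. With library quality weights it was −0.028 for Rpl10, −0.035 for Rplp1, −0.085 for Rps10, −0.14 for Rps12 and −0.0099 for Rps4l. Rps15 turned to 0.0044 with DESeq2, 0.0043 with its size factors, 0.058 with library totals only and 0.011 on log2 FPKM, and Rps27 to −0.017 at a mean of at least 5 CPM. With each library left out in turn, values ran from −0.035 to 0.17 for Rpl10, −0.25 to 0.012 for Rpl13a, −0.12 to 0.020 for Rplp0, −0.099 to 0.11 for Rplp1, −0.11 to 0.37 for Rplp2, −0.23 to 0.29 for Rps10, −0.21 to 0.38 for Rps12, −0.080 to 0.078 for Rps15, −0.038 to 0.049 for Rps27, −0.81 to 0.19 for Rps27a, −0.0049 to 0.22 for Rps4l and −0.038 to 0.29 for Rpsa. Over all genes, DESeq2 called 11 and edgeR without a filter called 2, against 0; the cause of these turns and counts was not tested. The replicate numbers gave no sign of pairing. Deviations of same-numbered libraries correlated at 0.01, −0.19 and −0.02, and those of differently numbered libraries at −0.30 to 0.25. Deviations from means of 3 libraries cannot exclude a pairing. With the replicate block, 0 members were called and the median was 0.11. With 3 libraries per group, 26.7% of simulated 2-fold changes were recovered, and smaller changes were not simulated.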
